A study of Homo sapiens with 76 samples.

Results

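Camptothecin, a plant alkaloid that poisons topoisomerase I, was set against its vehicle DMSO in TK6 cells. The comparison rests on the samples whose labels give camptothecin at 125 nM or the DMSO vehicle, 2 replicates each, which are 4 of the 76 samples of the series. TK6 is a human B lymphoblastoid cell line with functional p53. All cells were exposed for 4 h during exponential growth, and DMSO cultures received the same volume of solvent as treated cultures. The cells had been exposed on separate occasions for each replicate, and nothing was added to either group besides the agent or the solvent. TaqMan RT-qPCR gave the mRNA level of 61 genes of a DNA damage panel, and all 61 are described. The series as a whole covered 38 conditions, and etoposide, 5-fluorouracil and cisplatin, which were dissolved in DMSO too, are used below for comparison.

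Topoisomerase I nicks one DNA strand, lets the helix unwind ahead of replication and transcription, and reseals the nick. Camptothecin holds the enzyme on the nicked DNA, and a replication fork that runs into the trapped complex can turn it into a double-strand break. The kinases that sense such breaks stabilise p53, a transcription factor whose targets stop the cell cycle, repair DNA, change metabolism or start cell death, and which also induces MDM2 and PPM1D, its own inhibitors.

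The level of a gene is given as minus ΔCq, the mean Cq of the reference genes HPRT1 and GUSB minus the Cq of the gene. Cq is the PCR cycle at which the signal crosses a threshold, so 1 cycle fewer means template was about 2 times as abundant if amplification is fully efficient, which was not measured here. A higher (less negative) level means more mRNA, a difference of levels is a log2 fold change, and levels of different genes are not compared because each has its own assay. RNA input was equal between samples, so fewer cells and less RNA per cell cannot be told apart. GUSB lay 0.90 and 0.88 cycles above HPRT1 with camptothecin and 1.42 and 1.30 cycles above it with DMSO. The distance between the references thus fell by 0.47 cycles, and each log2 fold change was higher by 0.24 with HPRT1 alone and fell by 0.24 with GUSB alone. The panel holds none of the defining B cell markers, so the cell type was not checked beyond TNFRSF17, a receptor of late B lineage cells, which was detected at Cq 27.5 and 28.1 with camptothecin and 28.1 and 27.9 with DMSO.

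DMSO replicate 2 shared 11 Cq values, to both decimals, with replicate 2 of the medium vehicle, whereas pairs of samples outside the 6 pairs with such repeats shared at most 4. The genes were C12orf5, CCP110, DCP1B, DDB2, HIST1H2BG, MDM2, PHLDA3, PPM1D, PRKAB1, TOPORS and TRIAP1. Of these 11 genes, 10 were called against both DMSO replicates and 10 without DMSO replicate 2, and no log2 fold change among them moved by more than 0.18.

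After 4 h of camptothecin, 35 of 61 genes rose and 7 fell (limma, adjusted p under 0.05). These are 57.4% and 11.5% of the panel, 68.9% together. The median log2 fold change over the panel was 0.67, 23 genes rose at least 2-fold on the fitted value and 6 fell at least 2-fold. The levels of both camptothecin replicates lay outside those of both DMSO replicates for 52 genes (85.2%), above them for 41 (67.2%) and below them for 11 (18%). The panel had been selected in earlier work on DNA-damaging agents that included these, so its share of responding genes is no independent evidence of a direction. Scaling to the median of the panel instead of the reference genes lowered every log2 fold change by about 0.56 and changed the split to 21 higher and 16 lower. It ended the calls of ACTA2, BRMS1L, CCP110, CEBPD, DCP1B, E2F8, EI24, FAM123B, MEX3B, PRKAB2, RPS27L, SMAD5, TOPORS and TRIM22, all of them called higher with the reference genes. Leaving out 1 of the 4 samples ended the call of ACTA2, CEBPD, E2F8, EI24, MEX3B, SMAD5, TOPORS or USP41 for at least one choice of sample, and no call of a gene that fell.

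**Figure D1:**
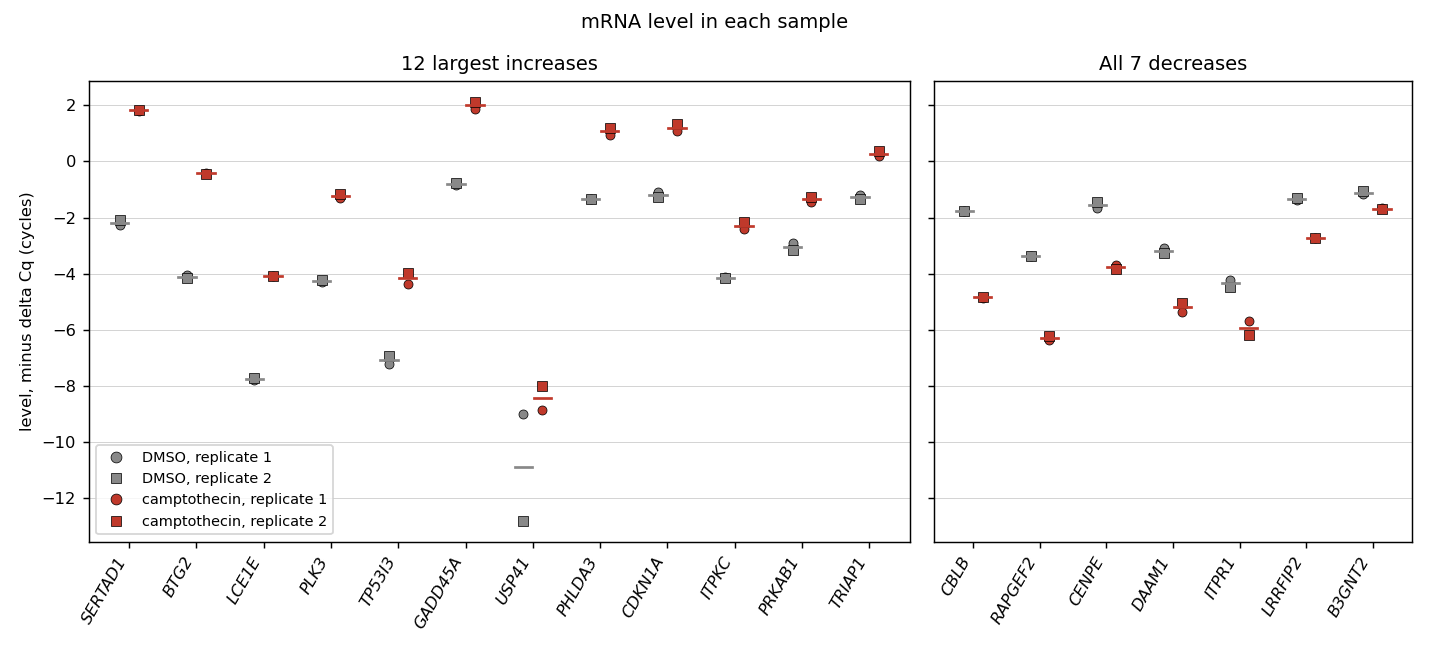
Level (minus ΔCq, in cycles) of the 12 genes with the largest increases and of all 7 genes that fell, in each DMSO (grey) and camptothecin (red) sample; circles are replicate 1, squares replicate 2 and short lines the mean of the 2 replicates. The replicates lay close together beside the distance between groups except for USP41, whose DMSO replicates were at −9.00 and −12.80.

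The growth arrest group rose together and had the highest median of all groups. Groups were drawn up with earlier results of these data known, so this ranking is not an independent result. The growth arrest group also holds SERTAD1, a cell cycle regulator that is neither a listed p53 target nor a known inhibitor of division. All 5 rose, beside 57.4% of the panel, and all 5 did so with panel median scaling too. Their median log2 fold change was 3.04 (2.39 to 4.00) beside 0.67 for the panel. SERTAD1, which binds cyclin-dependent kinase 4 and E2F coactivators, stood at 1.81 and 1.83 with camptothecin and at −2.26 and −2.09 with DMSO. The groups did not overlap, and the difference of 4.00 (SE 0.345), a 15.9-fold rise, was the largest of the panel (adjusted p = 1.27e-13). BTG2, an antiproliferative cofactor of mRNA deadenylation and a p53 target, was at −0.42 and −0.43 against −4.06 and −4.14. Its replicates differed by 0.01 with camptothecin and it rose 12.8-fold (log2 fold change 3.68, SE 0.19, adjusted p = 8.97e-21). PLK3, a stress-responsive polo-like kinase, was at −1.29 and −1.16 against −4.28 and −4.24, an 8.20-fold rise (adjusted p = 2.92e-18). GADD45A, a stress sensor that slows entry into mitosis, was at 1.88 and 2.12 against −0.84 and −0.77. It rose 6.99-fold (log2 fold change 2.81, adjusted p = 4.36e-16). CDKN1A, which encodes the cyclin-dependent kinase inhibitor p21, was at 1.07 and 1.33 against −1.09 and −1.28, a 5.22-fold rise (adjusted p = 1.94e-12). In all 5 genes both camptothecin samples lay above both DMSO samples. Per the methods, GADD45A and CDKN1A were among the indicator genes by which the concentration of each agent had been chosen, so their rise is not independent of the choice of dose.

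Both negative regulators of p53 rose by less than any gene of the growth arrest group. MDM2, the ubiquitin ligase that degrades p53, was at −1.18 and −1.29 with camptothecin and at −2.33 and −2.25 with DMSO. It rose 2.08-fold (log2 fold change 1.06, SE 0.213, adjusted p = 2.76e-05). PPM1D, the phosphatase that switches off p53 and its upstream kinases, was at −1.75 and −1.43 against −2.73 and −2.98, a 2.40-fold rise (adjusted p = 2.01e-06). The repair genes rose by a similar amount. DDB2, which recognises ultraviolet lesions in nucleotide excision repair, was at −1.33 and −0.99 against −2.61 and −2.45 and rose 2.59-fold (adjusted p = 1.80e-08). RRM2B, the p53-inducible subunit of ribonucleotide reductase that supplies nucleotides outside S phase, was at −2.88 and −2.85 against −3.98 and −4.02 and rose 2.20-fold (adjusted p = 1.98e-05). Neither gene's groups overlapped.

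Of 7 death and survival genes, 6 rose (85.7% beside 57.4% of the panel) and the group median was 1.46. Panel median scaling called 4 of the 7 higher and 1 lower. TP53I3, a quinone oxidoreductase linked to oxidative stress in p53-dependent death, was at −4.35 and −3.97 with camptothecin and −7.21 and −6.92 with DMSO. It rose 7.49-fold (log2 fold change 2.91, SE 0.338, adjusted p = 4.28e-10). PHLDA3, a p53-induced repressor of Akt, was at 0.95 and 1.21 against −1.32 and −1.34, a 5.32-fold rise (adjusted p = 3.01e-15). TRIAP1, a small protein that restrains apoptosis, was at 0.19 and 0.36 against −1.21 and −1.32 and rose 2.91-fold (adjusted p = 1.99e-07). Genes that favour death and genes that restrain it thus rose side by side, with the groups apart in each. AEN, an apoptosis-enhancing nuclease, rose 2.75-fold, RPS27L, a ribosomal protein paralog that modulates MDM2, 1.85-fold and EI24, an endoplasmic reticulum protein of autophagy, 1.48-fold. The call of EI24 was lost with GUSB alone, panel median scaling or without camptothecin replicate 2, and that of RPS27L with panel median scaling. IKBIP was at −2.46 and −2.13 against −2.27 and −2.27, and its log2 fold change of −0.03 (95% interval −0.47 to 0.42) did not pass the test.

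All 3 energy genes rose, beside 57.4% of the panel, and 2 of the 3 did with panel median scaling. PRKAB1, a regulatory subunit of the energy sensor AMPK, was at −1.44 and −1.25 against −2.92 and −3.14, a 3.22-fold rise (adjusted p = 2.90e-10). PRKAB2, the other AMPK beta subunit, rose 1.92-fold, and C12orf5 (now TIGAR), which lowers glycolytic flux, 2.12-fold. Over the whole list of 22 known p53 targets, 19 rose (86.4% beside 57.4% of the panel) and 0 fell. At an unadjusted p under 0.05 by limma 0 fell as well, and the median log2 fold change was 1.30. The targets that did not pass were IKBIP, FBXO22, a substrate adaptor of a ubiquitin ligase (0.34), and TM7SF3, a membrane protein of the stress response (−0.38). Of the 39 other panel genes 16 rose (41%) and 7 fell (17.9%), with a median of 0.48, and all genes that fell were outside the target list. With panel median scaling 15 of the targets were called higher, and 2, IKBIP and TM7SF3, were called lower. GUSB alone called 17 of the targets higher. TM7SF3 was also called lower with GUSB alone, with the 4 samples alone, and within the 22 DMSO samples with or without the replicate number as a block.

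**Figure D2:**
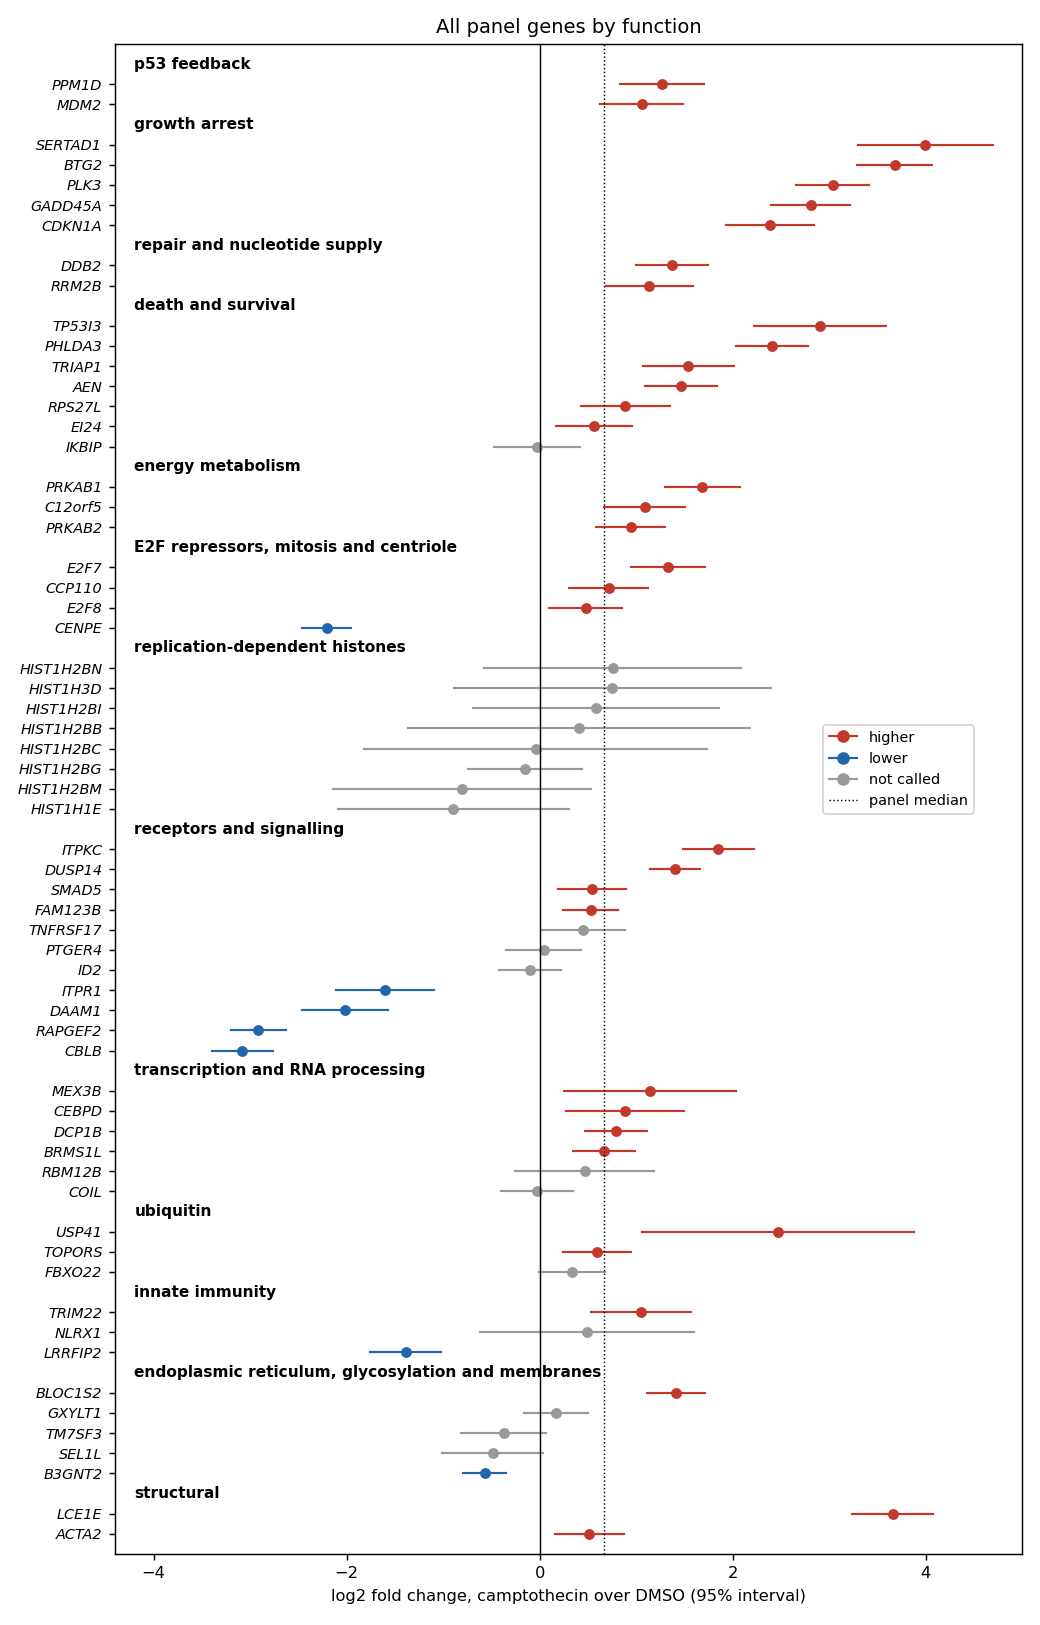
Log2 fold change of camptothecin over DMSO for all 61 genes, with 95% intervals from limma, grouped by function; red genes rose, blue genes fell and grey genes did not pass the test, and the dotted line is the panel median of 0.67. The growth arrest group lies at 2.39 to 4.00, CBLB at −3.08 and RAPGEF2 at −2.92, and the histone intervals all span 0.

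Of the 7 genes that fell, 4 were in the group of receptors and signalling. Of its 11 genes, 4 fell (36.4% beside 11.5% of the panel) and 4 rose (36.4% beside 57.4%), and the group median was 0.04. Panel median scaling called 6 of the 11 lower and 2 higher. CBLB, a ubiquitin ligase that dampens antigen receptor signalling in lymphocytes, was at −4.85 and −4.83 with camptothecin and at −1.76 and −1.76 with DMSO. It fell 8.46-fold (log2 fold change −3.08, SE 0.157, adjusted p = 6.64e-21), the largest decrease of the panel. RAPGEF2, an exchange factor that activates the small GTPase Rap, was at −6.36 and −6.21 against −3.36 and −3.38. It fell 7.54-fold (log2 fold change −2.92, SE 0.14, adjusted p = 1.40e-21). DAAM1, a formin that links Wnt signalling to actin, was at −5.35 and −5.04 against −3.10 and −3.26 and fell 4.04-fold (adjusted p = 7.90e-11). ITPR1, the calcium channel opened by inositol trisphosphate, was at −5.70 and −6.18 against −4.22 and −4.46 and fell 3.03-fold (adjusted p = 3.74e-07). For all 4 genes every camptothecin sample lay more than 1 cycle below every DMSO sample. ITPKC, a kinase that consumes inositol trisphosphate, moved the other way. It was at −2.41 and −2.17 against −4.12 and −4.16, a 3.61-fold rise (adjusted p = 6.29e-12).

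Among the other signalling genes, DUSP14, a phosphatase of MAP kinases and antigen receptor signals, rose 2.64-fold, SMAD5, which carries bone morphogenetic protein signals, 1.45-fold and FAM123B (now AMER1), a brake on Wnt signalling, 1.44-fold. SMAD5 and FAM123B lost their rise with panel median scaling (log2 fold change −0.015 and −0.025). TNFRSF17 (0.45), the prostaglandin receptor gene PTGER4 (0.04) and ID2, an inhibitor of helix-loop-helix factors (−0.10), did not pass the test.

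Genes of cell division moved in opposite directions. CENPE, the kinesin that moves chromosomes to the spindle equator and is made mainly in G2 and mitosis, was at −3.68 and −3.82 with camptothecin and at −1.64 and −1.45 with DMSO. It fell 4.61-fold (log2 fold change −2.21, SE 0.126, adjusted p = 1.81e-19), with the groups apart by 2.04 cycles. E2F7, a p53-induced repressor of E2F targets, was at −1.38 and −1.56 against −2.73 and −2.87 and rose 2.51-fold (adjusted p = 5.39e-08). CCP110, a cap protein of the centriole, rose 1.64-fold. E2F8, the other atypical E2F repressor, rose 1.39-fold (adjusted p = 0.0231), a call lost without DMSO replicate 2 (adjusted p = 0.114), without camptothecin replicate 2 and with GUSB alone, and reversed in sign with panel median scaling (log2 fold change −0.08).

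The structural genes hold one of the largest rises of the panel. LCE1E, a protein of the cornified envelope of skin that is not a usual lymphocyte product, was at −4.09 and −4.07 with camptothecin and at −7.77 and −7.70 with DMSO, Cq 27.5 and 27.9 against 31.0 and 31.1. It rose 12.6-fold (log2 fold change 3.66, SE 0.206, adjusted p = 1.47e-19), with no overlap. ACTA2, smooth muscle actin and a p53 target, was at −2.77 and −2.59 against −3.25 and −3.14, a 1.43-fold rise (adjusted p = 0.00894) whose sign turned with panel median scaling (log2 fold change −0.04).

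Of 6 genes of transcription and RNA processing, 4 rose, 66.7% beside 57.4% of the panel, and with panel median scaling 0 of the 6 did. MEX3B, an RNA-binding ubiquitin ligase, was at −4.22 and −4.46 against −5.63 and −5.34 and rose 2.21-fold (adjusted p = 0.0195), a call lost when camptothecin replicate 1 or DMSO replicate 1 was left out. DCP1B, a cofactor of mRNA decapping, rose 1.73-fold and BRMS1L, a component of a histone deacetylase complex, 1.59-fold. CEBPD, a stress-induced transcription factor and the weakest assay of the panel (mean Cq 35.0 over 76 samples), was at −10.19 and −9.87 against −10.58 and −11.25 and rose 1.85-fold, a call lost without DMSO replicate 2 (adjusted p = 0.193). RBM12B (0.47) and COIL, the Cajal body protein coilin (−0.03), did not pass.

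USP41, a homologue of ubiquitin proteases, was at −8.85 and −8.01 with camptothecin, −9.00 in DMSO replicate 1 and −12.80 in DMSO replicate 2, where Cq was 36.2. Its call rests on that last sample. The fitted log2 fold change was 2.47 (SE 0.696, adjusted p = 0.00179), but 0.57 without DMSO replicate 2 (adjusted p = 0.493) and 4.37 without DMSO replicate 1. TOPORS, a ligase for ubiquitin and SUMO that acts on p53, was at −2.17 and −2.02 against −2.84 and −2.54 and rose 1.51-fold.

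In the innate immunity group 1 gene rose, 1 fell and 1 did not pass. LRRFIP2, an adaptor of Toll-like receptor signalling, was at −2.73 and −2.71 against −1.37 and −1.29 and fell 2.62-fold (adjusted p = 7.02e-09). TRIM22, an antiviral ubiquitin ligase and p53 target, was at −0.70 and −0.53 against −1.82 and −1.51 and rose 2.07-fold. NLRX1, a mitochondrial NOD-like receptor, had a log2 fold change of 0.49 (95% interval −0.62 to 1.60). Among 5 genes of the endoplasmic reticulum, glycosylation and membranes, B3GNT2, which builds polylactosamine chains, was at −1.67 and −1.70 against −1.17 and −1.06 and fell 1.49-fold (adjusted p = 1.48e-05). BLOC1S2, a subunit of a complex that forms lysosome-related organelles, rose 2.66-fold. SEL1L, a scaffold of protein degradation at the endoplasmic reticulum (−0.49), GXYLT1, a xylosyltransferase (0.17), and TM7SF3 (−0.38) did not pass.

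In the main fit, which has no replicate block, no replication-dependent histone gene passed the test in either direction. Of these genes 0 of 8 did so at an adjusted p under 0.05 by limma and 0 of 8 without adjustment. Their log2 fold changes ran from −0.90 (HIST1H1E) to 0.76 (HIST1H2BN), with standard errors of 0.29 to 0.88 against a median of 0.20 for the panel. HIST1H3D was at 0.12 in camptothecin replicate 1 and −1.51 in replicate 2, against −1.32 and −1.57 with DMSO. HIST1H2BB was at −0.74 and −2.56 against −1.78 and −2.34, and HIST1H2BI at −0.84 and −2.37 against −2.06 and −2.31. In each of the 8 genes camptothecin replicate 1 was the higher one, by a median of 1.47 cycles. Other treatments shared this order, replicate 1 being higher in 7 genes with etoposide (median 1.33 cycles), 8 with 5-fluorouracil (0.92) and 7 with cisplatin (0.50), and in 5 genes with DMSO (0.25). With the replicate number as a block, HIST1H1E was called lower than with DMSO (adjusted p = 0.00188), and with the block within the 22 DMSO samples HIST1H2BM was called lower and HIST1H2BN higher as well. The block also called HIST1H2BG, HIST1H2BI and HIST1H2BN higher than with 5-fluorouracil, and HIST1H2BG and HIST1H2BI higher than with cisplatin. These mRNAs are made in S phase, but the share of cells in S phase was not measured. HIST1H1E, a linker histone, was at 0.56 and 0.13 against 1.62 and 0.86, so its groups did not overlap, yet its 95% interval was −2.09 to 0.30. The histone genes lack introns and are near-identical in part, and whether an assay for one of them also reads others was not tested.

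**Figure D3:**
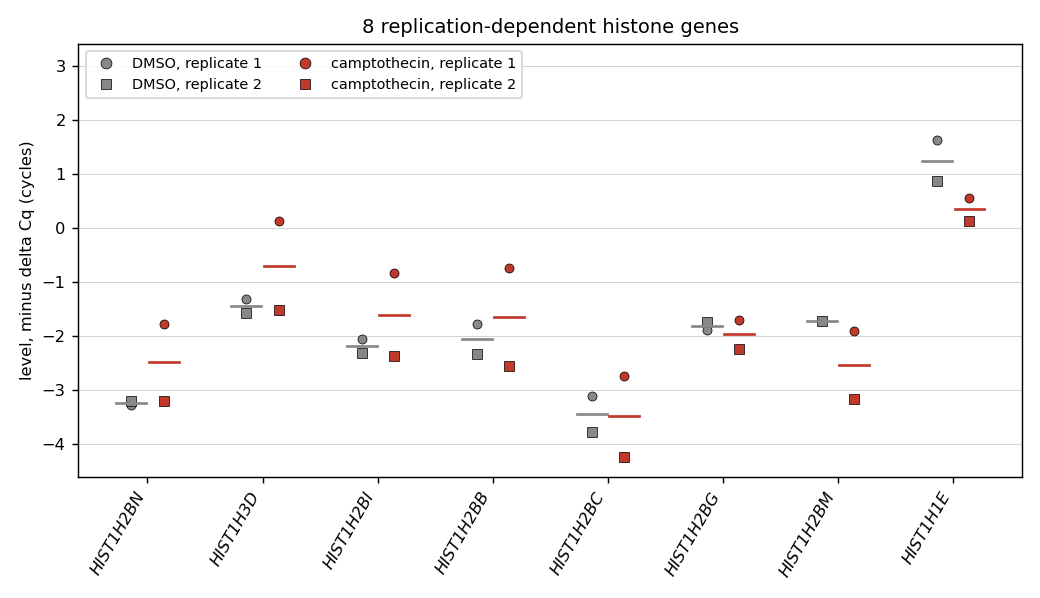
Level (minus ΔCq, in cycles) of the 8 replication-dependent histone genes in each DMSO (grey) and camptothecin (red) sample; circles are replicate 1, squares replicate 2 and short lines the means. Camptothecin replicate 1 lies above replicate 2 for each gene, by 1.63 cycles for HIST1H3D.

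Camptothecin was then set against other DNA-damaging agents dissolved in DMSO. Etoposide at 200 nM poisons topoisomerase II, 5-fluorouracil at 25 µg/ml is an antimetabolite that blocks thymidylate synthesis, and cisplatin at 80 µM crosslinks DNA. The concentrations differ in unit and size, having been picked per agent for the strongest indicator gene response at acceptable viability, so differences are between treatments as given and not between equal doses. Against DMSO, etoposide changed 40 genes (65.6%), 5-fluorouracil 39 (63.9%) and cisplatin 30 (49.2%). Each direct contrast leaves DMSO out, and all 3 share the same camptothecin samples. With panel median scaling the splits given below became 10 higher and 14 lower against etoposide, 10 and 14 against 5-fluorouracil, and 10 and 10 against cisplatin.

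Camptothecin differed from etoposide in 29 genes (47.5%), 19 of them higher (31.1%) and 10 lower (16.4%) with camptothecin. Without etoposide replicate 1 the count higher was 11, and TP53I3 and PHLDA3 were among the calls lost. SERTAD1, at −0.95 and −0.69 with etoposide, was 6.23-fold higher with camptothecin (difference 2.64, SE 0.345, adjusted p = 1.61e-08). GADD45A, at −0.51 and −0.05 with etoposide, was 4.86-fold higher and LCE1E, at −6.53 and −5.88, was 4.36-fold higher. PLK3, at −3.28 and −2.94, was 3.69-fold higher, BTG2, at −2.09 and −1.96, was 3.03-fold higher and CEBPD, at −12.43 and −11.49, was 3.81-fold higher. CBLB, at −2.53 and −2.32 with etoposide, was 5.33-fold lower with camptothecin (difference −2.42, SE 0.157, adjusted p = 4.16e-17). RAPGEF2, at −4.09 and −3.94, was 4.82-fold lower, CENPE, at −2.14 and −2.27, was 2.92-fold lower, and DAAM1 and ITPR1 were 2.36-fold and 2.35-fold lower. None of these genes had overlapping replicates, but they were picked as the largest called differences. Replicates also did not overlap for genes that were not called, NLRX1 and PRKAB2 among them. Of the p53 targets MDM2, TM7SF3, IKBIP and FBXO22 were lower with camptothecin. MDM2, at −0.14 and −0.45 with etoposide, was 1.92-fold lower with camptothecin (difference −0.94, SE 0.213, adjusted p = 0.00026).

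Against 5-fluorouracil, 26 genes differed (42.6%), 17 higher (27.9%) and 9 lower (14.8%). LCE1E, at −6.87 and −6.84 with 5-fluorouracil, was 6.82-fold higher with camptothecin (difference 2.77, SE 0.206, adjusted p = 3.07e-15). SERTAD1, at −0.72 and −1.01, was 6.41-fold higher, GADD45A 3.58-fold, PLK3 3.26-fold, TP53I3 3.00-fold and CEBPD 2.53-fold. CBLB, at −2.23 and −2.17 with 5-fluorouracil, was 6.26-fold lower with camptothecin (difference −2.65, SE 0.157, adjusted p = 1.68e-18) and RAPGEF2, at −3.64 and −3.88, 5.78-fold lower. CENPE was 2.98-fold lower, DAAM1 2.91-fold, ITPR1 2.42-fold and LRRFIP2 2.20-fold. For MDM2 the difference of −0.49 (95% interval −0.92 to −0.06) did not pass after adjustment (adjusted p = 0.0578). MDM2 was called lower with panel median scaling, with the replicate block, with the 22 DMSO samples alone, with both, and without 5-fluorouracil replicate 2 (adjusted p = 0.0213).

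Against cisplatin, 27 genes differed (44.3%), 23 higher (37.7%) and 4 lower (6.56%). Cisplatin replicate 1 shared 12 Cq values with replicate 1 of colchicine, TP53I3 and SERTAD1 among them. TP53I3 was at −8.30 and −6.51 with cisplatin and 9.48-fold higher with camptothecin (difference 3.25, adjusted p = 1.08e-10), but the difference was 2.35 without cisplatin replicate 1. SERTAD1 was at −2.12 and 0.39 with cisplatin, a difference of 2.69 that was 1.43 without that replicate, with the call kept (adjusted p = 1.28e-05). LCE1E, at −6.81 and −6.58, was 6.13-fold higher with camptothecin (adjusted p = 6.16e-14). GADD45A was 3.24-fold, ITPKC 2.74-fold and BTG2 2.57-fold higher. The 4 lower genes were CBLB, DAAM1, CENPE and RAPGEF2. CBLB, at −3.36 and −3.27 with cisplatin, was 2.88-fold lower with camptothecin (difference −1.53, SE 0.157, adjusted p = 1.06e-10), and RAPGEF2, at −5.48 and −5.52, was 1.72-fold lower. Cisplatin itself thus lowered RAPGEF2, with a log2 fold change over DMSO of −2.13 beside −2.92 for camptothecin.

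**Figure D4:**
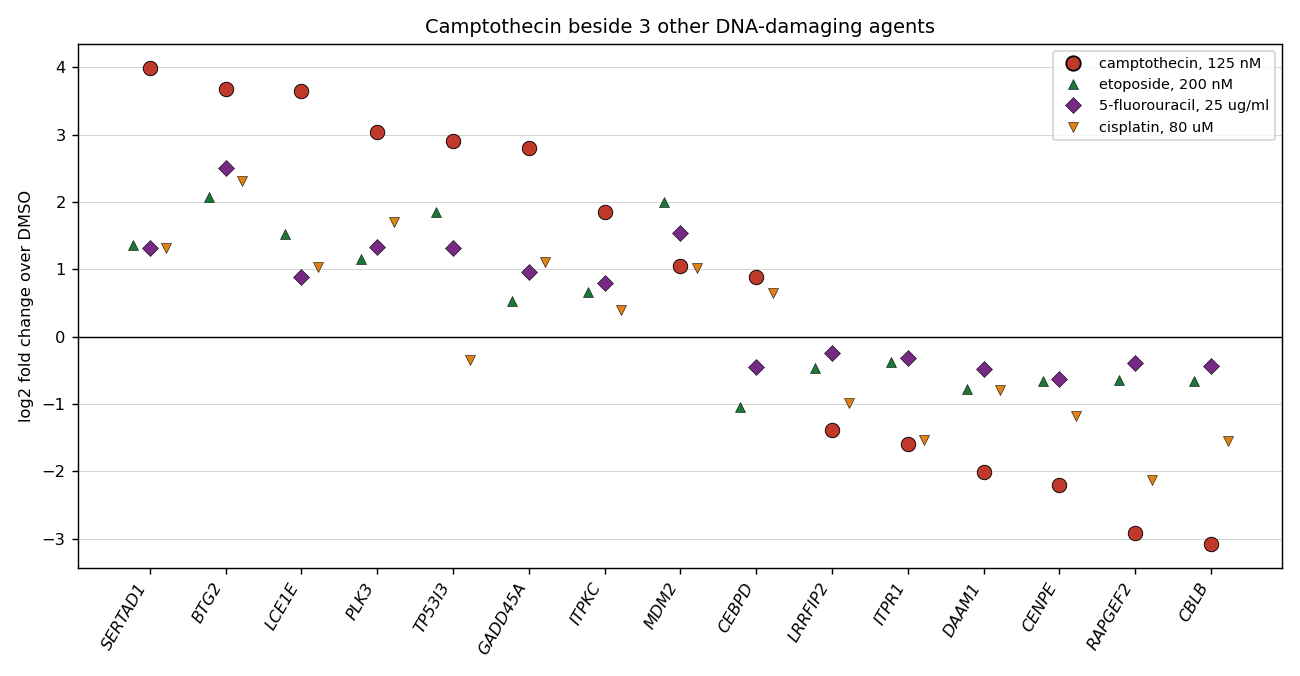
Log2 fold change over DMSO of camptothecin (red circles), etoposide (green), 5-fluorouracil (purple) and cisplatin (orange) for the genes named in the comparisons of agents; each point is the mean of 2 replicates against the same 2 DMSO samples. Camptothecin lies highest for SERTAD1, BTG2, LCE1E, PLK3, TP53I3, GADD45A and ITPKC and lowest for CBLB, RAPGEF2, CENPE and DAAM1, whereas MDM2 stands higher with etoposide.

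For CDKN1A no such difference was called. CDKN1A, like GADD45A, was an indicator gene in the choice of each dose, so its likeness between agents is not independent of that choice. Its log2 fold change was 2.39 with camptothecin, 2.50 with etoposide, 2.55 with 5-fluorouracil and 2.66 with cisplatin. The difference was −0.12 from etoposide (95% interval −0.57 to 0.34), −0.17 from 5-fluorouracil (−0.62 to 0.29) and −0.27 from cisplatin (−0.73 to 0.19). None passed the test, but panel median scaling called CDKN1A lower than with cisplatin (difference −0.73, adjusted p = 0.00689). Of the 5 genes in the growth arrest group the other 4 were higher with camptothecin than with each of the 3 agents. Of the 22 p53 targets, camptothecin was higher in 8 (36.4%) and lower in 4 (18.2%) against etoposide and higher in 8 (36.4%) and lower in 2 (9.09%) against 5-fluorouracil, beside 31.1% and 16.4%, and 27.9% and 14.8%, of the panel. Against cisplatin it was higher in 13 (59.1% beside 37.7% of the panel) and lower in 0 (also 0 at an unadjusted p under 0.05, limma). With panel median scaling these splits were 3 higher and 5 lower, 5 and 5, and 7 and 4. The targets higher than with cisplatin include TP53I3, RRM2B, RPS27L and TRIM22, whose Cq in cisplatin replicate 1 equalled that in colchicine replicate 1. Setting such repeated values to missing ended the calls of RPS27L and TRIM22 against cisplatin.

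Among all 10 treatments dissolved in DMSO, which add apicidin, oxamflatin, trichostatin A, vinblastine, paclitaxel and docetaxel, the mean level with camptothecin was the highest for 36 of 61 genes and the lowest for 7. The 7 were CBLB, RAPGEF2, CENPE, DAAM1, ITPR1, LRRFIP2 and SEL1L. Among the 36, HIST1H2BB, HIST1H2BI, HIST1H2BN, HIST1H3D, NLRX1 and TNFRSF17 were not called against DMSO. The paper classes the treatments added here as not damaging DNA. The panel had been selected to tell such agents, these included, from DNA-damaging ones, so the ranks are no independent evidence. The differences from cisplatin were not called for ITPR1 (−0.07), SEL1L (−0.09) and LRRFIP2 (−0.40), and SEL1L was not called against DMSO either. Cisplatin gave ITPR1 a log2 fold change over DMSO of −1.53, beside −1.60 for camptothecin. Set against the means of the 9 vehicles of the series, camptothecin lay above all of them for 34 of the 35 genes that rose and below all of them for the 7 that fell. The exception was USP41. Of the 19 genes not called, 3 lay above all vehicles and 0 below all of them. DMSO is 1 of the 9 vehicles, so part of this result follows from how the genes were called. The ethanol and acetonitrile vehicles shared 50 of 61 Cq values in each replicate, and methanol replicate 1 shared 19 with replicate 1 of each, so the 9 vehicles are not 9 separate measurements.

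Promoters of the panel were searched for CATGNNNNNNCATG, which holds core letters of a strong p53 site and reads the same on both strands. The other positions of such a site were left free. A match is thus not by itself a p53 site, and binding of p53 was not measured. RefSeq windows of 300 bases around the start (250 before and 50 after, GRCh38.p14) were held for 51 of 61 genes. A match was found for 2 genes, TRIAP1 and RAPGEF2, in 2 of the 69 windows of the panel. Among all 35116 windows 131 held one (0.373%). The pair is shown because it holds one gene that rose 2.91-fold and one that fell 7.54-fold. The capitals mark the outer letters of the match, which lies before the start in RAPGEF2 (chr4:159227428-159227727, plus strand) and after it in TRIAP1 (chr12:120446335-120446634, minus strand). In TRIAP1 the match therefore lies in transcribed sequence, where it follows an ATG.
TRIAP1: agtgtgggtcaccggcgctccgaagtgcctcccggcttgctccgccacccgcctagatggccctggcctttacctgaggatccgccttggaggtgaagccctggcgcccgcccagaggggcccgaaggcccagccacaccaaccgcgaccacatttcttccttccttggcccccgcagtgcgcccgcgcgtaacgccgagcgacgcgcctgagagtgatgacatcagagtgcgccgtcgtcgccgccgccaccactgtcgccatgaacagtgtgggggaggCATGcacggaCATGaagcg
RAPGEF2: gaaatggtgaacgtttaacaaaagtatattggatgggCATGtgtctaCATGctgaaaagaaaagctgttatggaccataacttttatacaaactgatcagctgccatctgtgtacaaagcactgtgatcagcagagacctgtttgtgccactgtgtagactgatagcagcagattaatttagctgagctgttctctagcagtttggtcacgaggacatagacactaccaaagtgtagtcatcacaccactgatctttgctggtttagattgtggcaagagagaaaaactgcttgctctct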

How the data were processed

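Cq values were measured by the authors on custom TaqMan arrays in TK6 cDNA made from equal RNA amounts, and the deposited table gives 1 Cq per gene and sample in PCR cycles, to 2 decimals. Where a gene had more than 1 assay the authors kept 1, chosen by how the biomarker performed with it. A deposited table of fold changes holds the authors' own comparisons and was not used. Minus ΔCq was computed as the mean Cq of HPRT1 and GUSB minus the gene's Cq. The Cq of the panel ran from 20.7 to 38.2 over 76 samples, and no well was missing. The authors had already dropped the biomarker genes ARRDC4, PCDH8 and SEMG2, whose Cq was too late in most samples. No count depth applies, and the number of arrays limits the precision.

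A linear model with 1 mean for each of the 38 conditions was fitted to all 76 samples with limma 3.58.1 in R 4.3.3 (38 residual degrees of freedom), so all conditions share each gene's spread. Cq values repeated in 6 pairs of samples, 5 of them pairs of vehicles, were kept in this fit. Genes were called at a Benjamini-Hochberg adjusted p under 0.05 over 61 genes in each of 4 contrasts. An exact permutation test of 2 against 2 cannot go below p = 0.333 and was not used. The median SD between replicates was 0.13 with camptothecin and 0.11 with DMSO. The fit was tested on simulated data. Plots used matplotlib 3.10.9 under Python 3.11.15.

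Genes and gene lists were chosen with earlier results of these data known. Values in each sample are given for the 12 highest and up to 8 lowest called genes whose direction was shared by both replicates, and for at least 1 gene per group. For each other agent the 6 largest differences per direction are named, and the remaining genes with their fold change. CDKN1A, IKBIP, FBXO22, TM7SF3 and, beyond etoposide, MDM2 in the comparisons of agents were named after their values were seen. So were PHLDA3 as a lost call, SEL1L among the DMSO treatments, ITPR1, SEL1L and LRRFIP2 against cisplatin, and the promoter pair. All 61 genes were matched to RefSeq, for names only, apart from the promoter windows. Alternatives were the reference gene, panel median scaling, a replicate block, the samples and vehicles in the fit, weak assays (mean Cq above 31), a variance trend, adjustment over all 4 contrasts, repeated Cq values and left-out replicates.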

Additional observations from a re-analysis of the deposited data

How the results depend on the processing

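Of the 42 genes called against DMSO, 27 kept their call and direction under every alternative run and 15 lost it under at least 1, named in the report or with log2 fold changes of 1.05 or less. Panel median scaling moved most: it called 21 genes higher and 16 lower, with 2 p53 targets and 2 histone genes lower, and reversed ACTA2 (−0.04), E2F8 (−0.08), FAM123B (−0.025) and SMAD5 (−0.015). It called 10 genes higher than etoposide, 10 higher and 14 lower than 5-fluorouracil, and 10 higher and 10 lower than cisplatin. With 1 reference gene the counts against DMSO were 38 higher and 7 lower (HPRT1) or 28 higher and 9 lower (GUSB). GUSB alone, the 22 DMSO samples alone and the 4 samples alone each called 1 p53 target lower. The mean of all 9 vehicles, or of the 8 other than H2O (chosen after seeing the data), called 1 histone gene higher and 1 lower.

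With 1 replicate left out, 38 to 41 genes were called against DMSO (31 to 34 higher, 7 to 7 lower, 17 to 19 p53 targets higher and 0 to 0 lower, histones 0 to 0 each way). The ranges were 21 to 27 against etoposide (11 to 19 higher, 8 to 10 lower), 20 to 22 against 5-fluorouracil (12 to 15 higher, 6 to 10 lower) and 20 to 28 against cisplatin (16 to 24 higher, 4 to 4 lower). The lowest counts higher came without etoposide replicate 1 (11) and without cisplatin replicate 1 (16). A sample left alone in its condition is assumed to vary like the others.

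The replicate numbers were checked as pairs. Deviations of camptothecin and DMSO replicates correlated over genes at −0.06 (0.34 without USP41), and 6 of 10 treatments in DMSO exceeded 0.1 (9 of 10 without USP41, range 0.09 to 0.58). As not all did, the main fit did not pair samples by number, although all 10 lay above 0 without USP41. Per the methods each agent and its solvent were exposed on separate occasions, so the number may stand for the occasion. Fits with a replicate block are therefore given beside the main fit. A replicate block called 35 higher and 8 lower, with 1 histone gene (HIST1H1E) lower. Within the 22 DMSO samples a replicate block called 11 lower, with 1 p53 target lower, 1 histone gene higher and 2 lower, and 35 genes higher than cisplatin. The planned removal of any Cq equal to that of another sample was not run, since 67 of 244 wells match some sample at 2 decimals. Setting only values of pairs sharing at least 10 to missing, chosen after seeing the data, kept all 42 calls against DMSO. Against cisplatin it ended the calls of RPS27L and TRIM22. The causes of these shifts were not tested. High Cq limits CEBPD and USP41, and 2 samples a group limit all genes.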
